A study of Homo sapiens with 8 samples.

Results

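The miR-99, miR-100 and miR-125 miRNAs come from 3 paralogous clusters, and their 10 named arms were picked by name out of the 2575 mature miRNA names in each count file. All 10 names were present. They were followed in total RNA of HCT116, an established human colorectal cancer cell line. For 4 libraries, ETBF was added to the cultures at a multiplicity of infection of 500 and left for 6 hours. ETBF stands for enterotoxigenic Bacteroides fragilis, an anaerobic gut bacterium named for its toxin, which cleaves E-cadherin at the surface of epithelial cells. The 4 control libraries came from the same line given bacterial medium with no ETBF, were titled as untreated, and have no labelled duration. All cells were at passages 16 to 19 and grew as adherent cultures of 1 cell line without immune or stromal cells. The labels do not say that replicates were separate cultures, so p-values measure the spread between these libraries, which may be technical in part.

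A miRNA hairpin is cut by Drosha and Dicer into a duplex of a 5p and a 3p arm, and usually 1 arm is kept by Argonaute while the other, the minor arm, is mostly lost. Bases 2 to 8 of the kept arm, the seed, choose its mRNA targets. The miR-99 and miR-100 family is among the oldest in animals and is known for repressing mTOR. MiR-125 is a homologue of lin-4, the first miRNA described. The arms from the long non-coding RNA MIR100HG have been studied in colorectal cancer for their part in resistance to the antibody cetuximab.

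Each cluster holds a hairpin of the miR-99 and miR-100 family, a let-7 hairpin and a miR-125 hairpin. In GENCODE on GRCh38, a later build than the authors' GRCh37, all 9 hairpins lie in introns of their host genes and on the host's strand. MIR100HG on chromosome 11 (minus strand) carries MIR100 at chr11:122152229-122152308, MIRLET7A2 at chr11:122146522-122146593 and MIR125B1 at chr11:122099757-122099844, spread over 52552 bases. MIR99AHG on chromosome 21 (plus strand) carries MIR99A at chr21:16539089-16539169, MIRLET7C at chr21:16539828-16539911 and MIR125B2 at chr21:16590237-16590325, over 51237 bases. The gene SPACA6 on chromosome 19 (plus strand) carries MIR99B at chr19:51692612-51692681, MIRLET7E at chr19:51692786-51692864 and MIR125A at chr19:51693254-51693339, all within 728 bases.

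RefSeq (GRCh38.p14) held a mature sequence for all 10 arms. The 5p arms are shown first because their shared seeds define the 2 families, with the seed in capitals and each sequence written 5′ to 3′. The first 3 share the seed ACCCGUA and the last pair share CCCUGAG.
hsa-miR-100-5p: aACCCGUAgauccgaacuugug
hsa-miR-99a-5p: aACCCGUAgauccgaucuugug
hsa-miR-99b-5p: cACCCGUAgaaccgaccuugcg
hsa-miR-125b-5p: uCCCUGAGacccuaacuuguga
hsa-miR-125a-5p: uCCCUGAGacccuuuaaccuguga

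Counted from 1 at the 5′ end, miR-100-5p differs from miR-99a-5p by the single substitution A16U, and from miR-99b-5p by A1C, U11A, A16C and U21C. MiR-125b-5p, of 22 bases, and miR-125a-5p, of 24 bases, have their first 13 bases in common. The sequence of miR-125b-5p is the same in both of its hairpins, so its count cannot be split between chromosomes 11 and 21. The 3p arms of those hairpins differ and tell them apart. They are shown, with miR-99b-3p and miR-125a-3p, because the changes between arms described below turn on them.
hsa-miR-125b-1-3p: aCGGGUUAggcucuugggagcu
hsa-miR-125b-2-3p: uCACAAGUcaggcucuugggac
hsa-miR-99b-3p: cAAGCUCGugucuguggguccg
hsa-miR-125a-3p: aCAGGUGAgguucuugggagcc

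These 4 arms have 4 different seeds, none of them shared with a 5p arm above. MiR-125a-3p and miR-125b-1-3p differ by A3G, G7U, U11C and C22U, and the substitutions at positions 3 and 7 lie within the seed.

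Library totals ran from 2591655 to 4706156 counts with ETBF and from 5243400 to 6522542 in controls. A count of 0 allows up to 3 counts, which was 0.645 to 1.12 CPM (counts per 1000000 counts, with library totals scaled by TMM) with ETBF and 0.447 to 0.597 CPM in controls, for counting error only. Epithelial miRNAs such as those of the miR-200 family summed to 23801 to 26369 CPM with ETBF and 27303 to 29351 CPM in controls without overlap. All 9 on the list were detected, and of the 8 tested 4 were lower and 1 higher with ETBF. Stromal and muscle miRNAs, 8 on the list with miR-206 at 0 in every library, summed to 389 to 430 and 415 to 430 CPM, and 0 of the 4 tested passed with edgeR (quasi-likelihood test). Blood and endothelial miRNAs, 7 on the list, summed to 1072 to 1303 CPM with ETBF and 1478 to 1664 CPM in controls without overlap. Of the 5 tested, 1 was higher, miR-451a (mean 18.3 CPM over the 8 libraries, log2 fold change 1.94). The 1 lower was miR-126-3p (mean 1325 CPM, log2 fold change -0.43), which held most of the sum. Of 8 entries that resemble ribosomal or other RNA, 4 of the 5 tested were higher with ETBF, and their sum was 199 to 611 CPM against 50.9 to 178 CPM. Among all 480 tested miRNAs, 19.8% were called higher and 14.6% lower with ETBF. The part of these list differences in the results below was not tested.

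With ETBF, miR-125b-1-3p, the minor arm of the chromosome 11 miR-125b hairpin, was 2.43-fold higher, while 3 of the 5p arms, miR-125b-5p, miR-125a-5p and miR-99b-5p, were lower by 1.18-fold to 1.32-fold. MiR-100-5p, by far the most abundant arm of these clusters, was not distinguishable between the groups. Of the 10 arms 9 had enough counts to test, and 1 of them rose, 3 fell and 5 did not pass (edgeR quasi-likelihood test, p adjusted over all 480 tested miRNAs, threshold 0.05). Over all 480, 19.8% were called higher and 14.6% lower. The 2 groups did not overlap for 2 of the 9 arms, against 33.8% of all tested miRNAs. The median log2 fold change was -0.06 over the 9 arms and 0.01 over all 480.

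**Figure D1:**
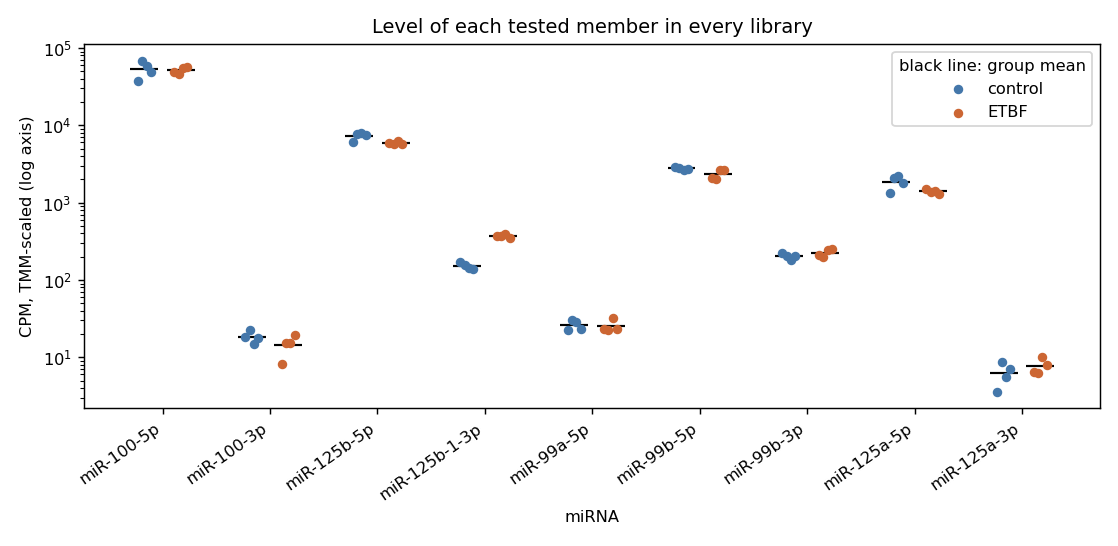
Level of the 9 tested arms in every library, in CPM on a log axis, with control libraries in blue, ETBF libraries in orange and group means as black lines. MiR-100-5p stands above all others, and miR-125b-1-3p is the arm whose ETBF points lie clearly above its control points.

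The arms covered nearly 4 orders of magnitude. MiR-100-5p was the third most abundant of the 480 miRNAs, miR-125b-5p was number 23, miR-99b-5p number 39 and miR-125a-5p number 47. Then followed miR-125b-1-3p at number 102, miR-99b-3p at 115, miR-99a-5p at 230, miR-100-3p at 257 and miR-125a-3p at 336. Mature arms have nearly equal lengths, so CPM orders them as a level per length would. The order is one of counts in these libraries, and how evenly sequencing captured each arm was not tested. Within a group the levels of neighbours did not overlap, except for miR-100-3p and miR-125a-3p with ETBF. The order of 1 pair turned between the groups. In all 4 controls miR-99b-3p was above miR-125b-1-3p, and in all 4 ETBF libraries it was below.

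All 10 arms together held 5.84% to 6.84% of a library's counts with ETBF and 4.65% to 7.69% in controls. The mean was 6.31% ± 0.527 against 6.49% ± 1.34 (SD, n = 4 each), a difference smaller than the spread. Most of this was the 3 arms assigned to MIR100HG alone (miR-100-5p, miR-100-3p and miR-125b-1-3p), with 4.85% to 5.82% and 3.63% to 6.48%. The 4 arms of the SPACA6 cluster held 0.379% to 0.434% with ETBF and 0.428% to 0.507% in controls. The 2 arms assigned to MIR99AHG alone held 0.00216% to 0.00322% over all 8 libraries. MiR-125b-5p, made by 2 clusters, is in none of these 3 sums.

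MiR-100-5p, the mTOR-targeting arm that leads its family, was at 49261, 45609, 55607 and 56044 CPM in ETBF replicates 1 to 4 and at 37926, 68753, 58781 and 49559 CPM in control replicates 1 to 4. The controls lay on both sides of the ETBF libraries, with control replicate 1 the lowest and control replicate 2 the highest of the 8. The log2 fold change was -0.06 (SE 0.13, approximate 95% interval -0.32 to 0.20, edgeR adjusted p = 0.774). Without control replicate 2 it was 0.065 and without control replicate 1 it was -0.19 (adjusted p = 0.152), and it did not pass in either case. MiR-100-5p made up 92.8% to 96.0% of the counts of the 3 arms with the ACCCGUA seed.

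MiR-100-3p, its minor arm, was at 8.17, 15.3, 15.2 and 19.5 CPM with ETBF and at 18.3, 22.4, 15.0 and 17.6 CPM in controls. The groups overlapped, and the log2 fold change of -0.38 (SE 0.20, adjusted p = 0.167) did not pass. Without ETBF replicate 1, the lowest library, it was -0.17 (adjusted p = 0.459). The 5p arm exceeded the 3p arm by 3679-fold with ETBF and 2881-fold in controls (geometric means of the library ratios), the most one-sided hairpin of the 4 compared here.

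MiR-125b-5p, the lin-4 homologue arm, was at 5860, 5812, 6245 and 5721 CPM with ETBF and at 6165, 7747, 7997 and 7519 CPM in controls. Control replicate 1 lay among the ETBF libraries and the other 3 controls lay above them all. Its mean was 5909 ± 231 CPM against 7357 ± 818 CPM (SD, n = 4 each), and it fell by 0.32 on the log2 scale (SE 0.08, edgeR adjusted p = 0.00479). Without control replicate 1 the fall was larger, at -0.39 (adjusted p = 0.000213).

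MiR-125b-1-3p, the minor arm made from MIR125B1 alone, was at 374, 365, 397 and 345 CPM with ETBF and at 169, 157, 144 and 139 CPM in controls. The lowest ETBF library was more than 2 times the highest control. It rose from 152 ± 13.5 to 370 ± 21.3 CPM (SD, n = 4 each), with a log2 fold change of 1.28 (SE 0.08, edgeR adjusted p = 1.15e-08). The value lay between 1.198 and 1.34 under all 17 alternative settings.

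MiR-125b-2-3p, the corresponding arm of MIR125B2, had 1 count in ETBF replicate 3, 1 in control replicate 2 and 0 in the other 6 libraries, and was not tested. Both values are under the limit that a count of 0 allows, so no difference was detectable at this depth.

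The ratio of miR-125b-5p to miR-125b-1-3p is given as a description with no test, since it was added after the values of both arms had been seen. The 5p name carries no hairpin number, so this hairpin was not paired by name. The 5p count was 15.7, 15.9, 15.7 and 16.6 times the 3p count with ETBF and 36.4, 49.5, 55.6 and 53.9 times in controls. The ETBF values were close together and lay below every control. The difference in the log2 ratio, ETBF minus control, was -1.59. Among the 118 hairpins paired by name, 20.3% were called towards the 3p arm and 11.9% towards the 5p arm. The minor arm gained in 31 of the 38 called hairpins and lost in 7.

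**Figure D2:**
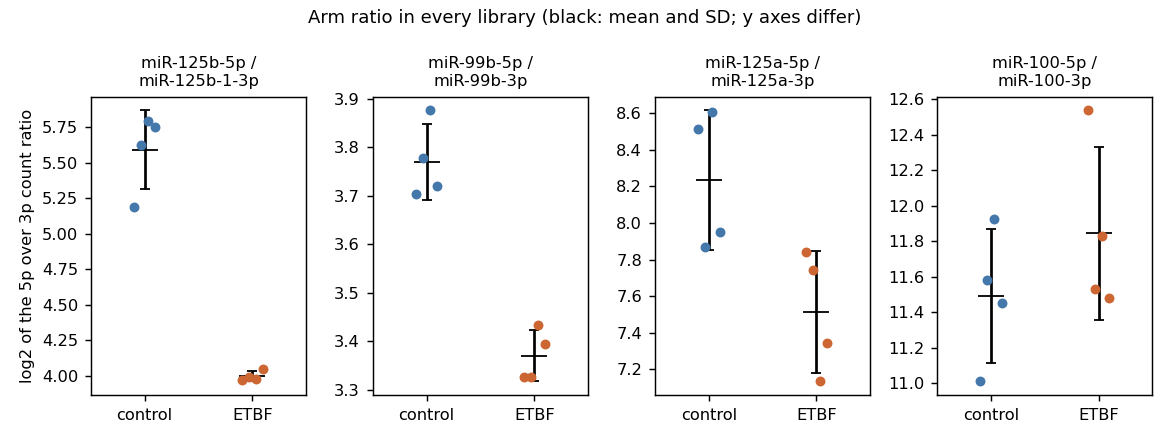
Log2 ratio of 5p to 3p counts in every library for 4 hairpins, with control in blue, ETBF in orange, and the mean with SD in black; the y axes differ between panels. For miR-125b-1, miR-99b and miR-125a every ETBF point lies below every control point, while for miR-100 the groups overlap.

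MiR-99b-5p, the member of the miR-100 family in the SPACA6 cluster, was at 2110, 2014, 2632 and 2642 CPM with ETBF and at 2920, 2822, 2677 and 2710 CPM in controls. The groups did not overlap, though ETBF replicates 3 and 4 came close to the lowest control. The mean was 2350 ± 334 and 2782 ± 111 CPM (SD, n = 4 each), and it fell by 0.24 on the log2 scale (SE 0.09, edgeR adjusted p = 0.0422). This call was lost with library totals alone as scaling (-0.19, adjusted p = 0.109), after thinning to equal depth (-0.21, adjusted p = 0.0695) and with the replicate number as a block (-0.25, adjusted p = 0.0701). It was also lost without ETBF replicate 1 or 2 or without control replicate 1 or 4 (adjusted p = 0.0872, 0.0907, 0.0882 and 0.0609).

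MiR-99b-3p, its minor arm, was at 210, 201, 243 and 251 CPM with ETBF and at 224, 206, 182 and 206 CPM in controls. The groups overlapped, and the log2 fold change of 0.15 (SE 0.09, adjusted p = 0.259) did not pass. The ratio of the arms did not overlap between the groups: the 5p count was 10.04, 10.03, 10.8 and 10.5 times the 3p count with ETBF and 13.02, 13.7, 14.7 and 13.2 times in controls. It fell by 0.40 on the log2 scale (SE 0.11, limma adjusted p = 0.0233 over 118 hairpins). The call was lost with the replicate number as a block (adjusted p = 0.0662), without ETBF replicate 4 (adjusted p = 0.0608) and without control replicate 2 or 3 (adjusted p = 0.0583 and 0.0751).

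MiR-125a-5p, the lin-4 homologue of the same cluster, was at 1503, 1384, 1425 and 1306 CPM with ETBF and at 1346, 2075, 2190 and 1789 CPM in controls. As for miR-125b-5p, control replicate 1 lay among the ETBF libraries and the other 3 controls above them. The mean was 1405 ± 82.2 and 1850 ± 376 CPM (SD, n = 4 each), and it fell by 0.40 on the log2 scale (SE 0.12, edgeR adjusted p = 0.0132). Without control replicate 3 the value was -0.31 (adjusted p = 0.0519).

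MiR-125a-3p, its minor arm, had 30, 27, 39 and 21 counts with ETBF and 18, 50, 29 and 48 in controls, or 6.34 to 10.02 CPM and 3.58 to 8.81 CPM. The groups overlapped, and the log2 fold change of 0.26 (SE 0.26, adjusted p = 0.480) did not pass. After thinning to equal depth it was -0.075, so no direction is given for it. The 5p arm was 229, 214, 140 and 162 times the 3p arm with ETBF and 366, 233, 390 and 247 times in controls, without overlap but with the highest ETBF library next to the lowest control. The log2 ratio fell by 0.72 (SE 0.23, limma adjusted p = 0.0386), a call lost with the replicate number as a block (adjusted p = 0.0696). It was also lost without ETBF replicate 3 or 4 (adjusted p = 0.0880 and 0.0912) and without control replicate 1 or 3 (adjusted p = 0.0998 and 0.0985).

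The log2 arm ratio of the miR-100 hairpin differed by 0.35 (SE 0.27, approximate 95% interval -0.18 to 0.88, limma adjusted p = 0.349), with overlapping groups. It was 0.12 without ETBF replicate 1 and 0.19 without control replicate 1. Whether this hairpin differs from the others was not tested.

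**Figure D3:**
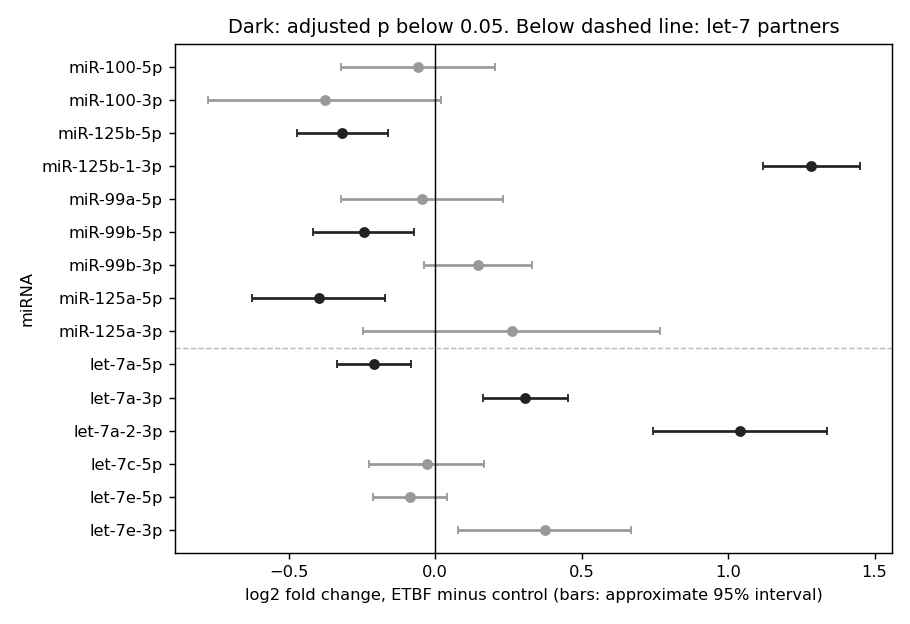
Log2 fold change, ETBF minus control, of the 9 tested arms and, below the dashed line, 6 tested let-7 arms, with approximate 95% intervals; dark points had an adjusted p below 0.05. MiR-125b-1-3p and let-7a-2-3p, both minor arms from MIR100HG, lie farthest to the right at 1.28 and 1.04. MiR-100-3p, also a minor arm from MIR100HG, lies to the left at -0.38 and did not pass.

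MiR-99a-5p, the chromosome 21 member of the miR-100 family, was at 23.4, 22.6, 31.8 and 23.6 CPM with ETBF and at 22.7, 30.3, 28.7 and 23.1 CPM in controls. The groups overlapped (log2 fold change -0.05, SE 0.14, approximate 95% interval -0.32 to 0.23, edgeR adjusted p = 0.840). Its level is uncertain, since 1 substitution separates it from the far more abundant miR-100-5p, and the number of mismatches the authors' mapping allowed is not given in the sources used here. In every library miR-99a-5p had 0.0421% to 0.0598% of the counts of miR-100-5p. The ratio of miR-100-5p to miR-99a-5p differed between the groups by 0.02 on the log2 scale (exact permutation p = 0.857), and by -0.074 to 0.094 when 1 library was left out. The minor arm miR-99a-3p, which was not among the 10 arms, had 0 counts in all 8 libraries.

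The let-7 arm of the same cluster was also at a small share of its paralog. Let-7c-5p, which differs from let-7a-5p by A19G (let-7a-5p base first), had 0.0846% to 0.114% of the let-7a-5p counts, and let-7c-3p had 0 counts in all 8 libraries. The 3p arms of the chromosome 21 cluster, miR-99a-3p, let-7c-3p and miR-125b-2-3p, were thus at 0 or 1 counts in each library. How much of the miR-99a-5p and let-7c-5p counts came from reads of their paralogs was not tested.

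**Figure D4:**
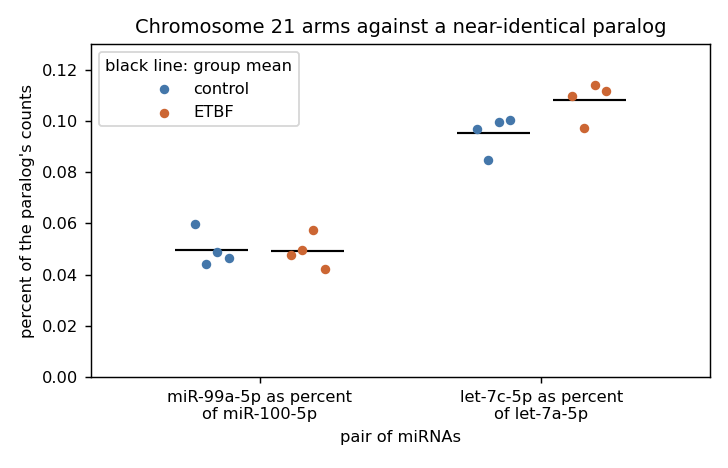
Counts of miR-99a-5p as a percent of miR-100-5p, and of let-7c-5p as a percent of let-7a-5p, in each library, with control in blue, ETBF in orange and group means as black lines. Both lie near 0.05% and 0.1% in every library, with overlapping groups.

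Apart from miR-99a-3p, the other arms of these clusters come from let-7 hairpins, whose 5p arms repress RAS genes and oppose cell growth. Those 5p arms share the seed GAGGUAG, which the 3p arms below lack. Of the 8 listed partner arms in the files, miR-99a-3p included, 6 were tested: 2 rose, 1 fell and 3 did not pass. The shares over all 480 tested miRNAs were 19.8% higher and 14.6% lower. Let-7a-2-3p, the minor arm that only the MIR100HG hairpin makes, was at 20.2, 22.1, 17.7 and 26.9 CPM with ETBF and at 9.35, 12.2, 9.69 and 10.4 CPM in controls. The groups did not overlap, and it rose 2.09-fold (log2 fold change 1.04, SE 0.15, edgeR adjusted p = 6.69e-05). Let-7a-3p, made by the other 2 let-7a hairpins outside these clusters, rose by 0.31 (SE 0.07, adjusted p = 0.00369). Let-7a-5p, which all 3 let-7a hairpins make, fell by 0.21 on the log2 scale (SE 0.06, adjusted p = 0.0170). Let-7c-5p was at 42.6 ± 1.31 and 43.6 ± 3.98 CPM (SD, n = 4 each) and did not pass (log2 fold change -0.03, edgeR adjusted p = 0.847). In the SPACA6 cluster let-7e-5p was at 927 ± 29.3 and 984 ± 21.6 CPM (log2 fold change -0.09, adjusted p = 0.335) and let-7e-3p at 12.6 ± 1.35 and 9.59 ± 0.770 CPM (0.37, adjusted p = 0.0680; SD, n = 4 each), and neither passed with edgeR.

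Ratios were also taken between arms of a cluster and between paralogs. Of 12 planned ratios 10 could be computed, since miR-125b-2-3p was too low for the other 2, and 0 of the 10 passed after adjustment when all 70 ways to split the 8 libraries were enumerated (exact permutation test, two-sided). The smallest p this design allows is 0.0286, and after adjustment a ratio could pass only if at least 6 of the 10 reached it, so not passing does not show that 2 arms moved alike. The ratio of miR-100-5p to miR-125b-1-3p, both from MIR100HG, was at that smallest p: the geometric mean was 139 with ETBF and 346 in controls without overlap (difference -1.31, exact permutation p = 0.0286, adjusted p = 0.286). The ratio of miR-99b-5p to miR-125a-5p in the SPACA6 cluster was 1.66 and 1.53 (difference 0.12, exact permutation p = 0.657), and the difference was 0.29 without control replicate 1 and 0.013 without control replicate 3. MiR-125b-5p was 4.21 times miR-125a-5p with ETBF and 4.03 times in controls (difference 0.06, exact permutation p = 0.543), and leaving out control replicate 1 or 3 moved the difference to 0.13 or 0.018. The ratio of miR-100-5p to miR-125b-5p was 8.71 and 7.17 (difference 0.28, exact permutation p = 0.0857, adjusted p = 0.381).

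Across the 8 libraries the arms most alike in their profile were miR-125b-5p and miR-125a-5p, with a root-mean-square difference of 0.11 in log2 CPM, each arm centred on its own mean. MiR-100-5p and miR-99a-5p followed at 0.16. An unknown part of the miR-99a-5p counts may be miR-100-5p reads, so this value does not show that their clusters moved alike. MiR-125b-1-3p stood apart from every other arm, by at least 0.58 and from its own 5p arm by 0.81. Outside the clusters the profiles nearest to miR-100-5p were those of miR-1307-3p (0.12) and miR-191-5p (0.13), and nearest to miR-99a-5p were miR-361-3p (0.12) and miR-1307-3p (0.14). Those nearest to miR-99b-5p were miR-1287-5p (0.10) and miR-584-5p (0.11), and to miR-125a-5p they were miR-140-5p and miR-135b-5p (0.16 each). The median difference from all other tested miRNAs was 0.32 to 0.39. These are descriptions over the 8 libraries.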

How the data were processed

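Small RNA libraries of HCT116 cells, 4 with ETBF and 4 controls, were grouped by their titles. The authors deposited raw read counts per mature miRNA name. Per the submitters' processing notes they used Trimmomatic, FastQC and featureCounts against GRCh37.p5. Not given in the sources used here: versions, aligner, miRNA annotation release, and strand and mismatch settings. No arm's 8 counts shared a common factor above 1. Within groups, chi-square per degree of freedom between libraries was 21.8 to 141, so none was a repeat deposit.

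Tests ran in R 4.3.3. For single arms this was edgeR 4.0.16 (quasi-likelihood, TMM, default filter at a minimum count of 10, 480 miRNAs, two-sided, Benjamini-Hochberg over the 480). CPM is TMM-scaled. SEs come from the fold change and the F statistic (|log2 fold change| / √F), and intervals are 1.96 SE. Arm ratios, log2 of the 5p over the 3p count after adding 0.5 to each, were fitted with limma 3.58.1 over all hairpins whose arms both passed the filter. Other ratios used exact permutation tests, adjusted over 10. Shares are given without a test, although one had been planned, because they are sums over chosen members. The scripts were tested on simulated data. Alternatives were RLE, total-count and upper-quartile scaling, 2 filters, DESeq2 1.42.0, limma-voom, a replicate block, thinning to 2591655 counts, another added count, and leaving out each library.

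Same-numbered libraries did not pair: correlations of their deviations from the group means were -0.06 to 0.06. The arms and lists were chosen with earlier results of these data known. All 10 arms and the tested let-7 partners are named, with the 2 nearest profiles of 4 arms. The miR-125b-1 arm ratio was added after seeing the data and is given without a test.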

Additional observations from a re-analysis of the deposited data

Results flagged for a closer look

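A set of 3 linked values of ETBF replicate 3 stood far from those of the other ETBF libraries, all through miR-99a-5p. Its level there was 31.8 CPM, from 124 counts, against 22.6 to 23.6 CPM in the other 3. The share of the arms assigned to MIR99AHG alone was 0.00322% of that library's counts, and the log2 ratio of miR-99a-5p to let-7c-5p was -0.43. In each case the gap to the nearest library exceeded the 95% critical share of the group's range for 4 values (Dixon's test). Of 58 groups of 4 libraries checked, 3 stood out in this way, and chance gives about 1 in 20. Without this library the log2 fold change of miR-99a-5p was -0.19 (edgeR adjusted p = 0.348).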

How the results depend on the processing

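The rise of miR-125b-1-3p and the fall of miR-125b-5p kept their direction and passed under all 17 alternatives (adjusted p up to 2.76e-06 and 0.0222). The miR-125b-1 arm ratio, which was added after its values were seen, was -1.73 to -1.53 when 1 library was left out. The fall of miR-125a-5p was lost in 1 of 17 and that of miR-99b-5p in 7 of 17, as given in the report, and arms called lower numbered 2 or 3. With the replicate block the arm ratios of miR-99b and miR-125a no longer passed. Their values of -0.40 and -0.72 could not change there, since every replicate number has a library in each group. Leaving out 1 library gave -0.42 to -0.36 for miR-99b and -0.84 to -0.59 for miR-125a, with calls lost in 3 and 4 of 8 cases. In no case was the cause tested. Signs turned for arms that did not pass: miR-99a-5p was at 0.0083 with total-count scaling, miR-125a-3p at -0.075 after thinning, and leaving out 1 library gave -0.19 to 0.065 for miR-100-5p and -0.19 to 0.017 for miR-99a-5p. The median of all tested miRNAs moved to 0.07 with total-count scaling and to -0.07 with upper-quartile scaling. With the stricter filter miR-125a-3p was not tested. With arms of at least 10 CPM the miR-125a hairpin gave no value, since its 3p arm lies below that. Ratios between arms were also given without a test when 1 library was left out. Depth limits miR-125b-2-3p, miR-99a-3p and let-7c-3p, whose levels cannot be told from 0.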
